A study of Mus musculus with 12 samples.

Results

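The MYC network is a set of basic helix-loop-helix leucine zipper transcription factors that compete for a shared partner and a shared DNA sequence. Of 10 listed genes, 9 were found by symbol among 51826 genes counted: Myc, Mycn, Max, Mxd1, Mxd3, Mxd4, Mxi1, Mnt and Mlx. No gene carried the symbol Miz1, which is a synonym of 2 genes, Zbtb17 and Pias2, so Miz1 was given no value. Zbtb17, which encodes the MYC-binding zinc finger protein MIZ-1, is described with the other network genes. Of the 9 genes found, 8 passed the filter on low counts and were tested, and Mycn did not.

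The RNA came from 12 libraries of 3′ mRNA sequencing in 6 groups of 2, made by crossing RPL12 genotype (WT, S38A or S38D) with cell state (asynchronous or mitotic). RPL12 is a protein of the large ribosomal subunit, and the mutant lines had serine 38 replaced by alanine (S38A) or aspartate (S38D). All groups were 19DN, a subline of the mouse B cell lymphoma 19PP sorted for loss of the GFP and hCD2 reporters. The tumour arose in a Rag2-/-γC-/- host, a strain without its own lymphocytes, from bone marrow cells carrying Cγ1-Cre, which is active in germinal centre B cells, and Myc and P110* alleles that Cre switches on. All 6 groups, controls included, therefore share an origin from a tumour with the Myc and P110* alleles. Whether 19DN kept these alleles after the sort for reporter loss was not tested. Mitotic cells received nocodazole at 100 ng/mL for 8 h and a release of 10 min, so state and drug cannot be told apart, and cycloheximide (100 µg/mL) was present at harvest of every group. The labels do not say how the RPL12 lines were made or whether each is 1 clone. They also do not give the 3′ end of the Myc allele that Cre switches on, so reads counted at Myc may or may not include its RNA.

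MYC and MYCN need MAX as a partner to bind DNA and mostly raise transcription of genes for growth, ribosome production and metabolism. The MXD proteins (MXD1, MXI1, MXD3 and MXD4) and MNT also pair with MAX, bind the same E-box sequence and recruit SIN3 corepressors, and several of them rise as cells leave the cycle. MLX resembles MAX and forms a parallel branch with the glucose-sensing factors MondoA and ChREBP, and it can also pair with MXD1, MXD4 and MNT. In Burkitt lymphoma a translocation places MYC under the control of an immunoglobulin locus.

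Because the network binds CACGTG, the canonical E-box, promoter windows of 300 bases from RefSeq (GRCm38.p6) were searched for it. CACGTG reads the same on both strands and was the only motif searched. Windows were found for 8 of the 9 genes, all except Myc. At least 1 match was present for 4 of these 8 genes, and 40.0% of their 10 windows held one, against 7.15% of 32851 windows of all genes. For the genes listed below as MYC targets the share was 28.8% of 66 windows. The 4 matches are printed as 30 bases each, 5′ to 3′ on the strand of the gene, with the E-box in capitals, since they show which members hold the sequence their own proteins bind. A match describes these letters and is not evidence of binding.
Max, chr12:76962234-76962263, minus strand: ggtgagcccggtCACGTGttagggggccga
Mxd4, chr5:34187912-34187941, minus strand: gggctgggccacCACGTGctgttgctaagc
Mnt, chr11:74830789-74830818, plus strand: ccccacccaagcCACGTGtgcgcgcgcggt
Mlx, chr11:101087238-101087267, plus strand: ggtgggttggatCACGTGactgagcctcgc
The windows of Mycn, Mxd1, Mxd3 and Mxi1 held no CACGTG.

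Gene reads per library ranged from 3432875 to 6587997. B cell identity was checked with 7 markers (Cd79a, Cd79b, Ms4a1, Cd22, Pax5, Ebf1 and Blnk), all of which passed the filter, with a summed level of 2560 to 3570 CPM in asynchronous and 1520 to 2280 CPM in mitotic libraries (CPM, counts per M reads after TMM scaling of library sizes). Of 8 T and NK cell markers 7 had no read in any library, and the list summed to at most 0.472 CPM. The 8 myeloid markers summed to at most 6.29 CPM with 3 at 0 (Itgam, S100a8 and S100a9), and the 7 stromal, epithelial and erythroid markers to at most 6.03 CPM with 3 at 0 (Col1a2, Krt8 and Krt18). That list holds no globin, and the beta globin gene Hbb-bt had a mean of 665 CPM over the 12 libraries. The part of Hbb-bt RNA in the results was not tested. The replicates of asynchronous S38D and of mitotic WT lay farthest apart on the main axis of differences within groups, which held 69.6% of that variance. Nothing in the labels says that replicates came from separate cultures, so p-values reflect only how far these libraries spread, and that spread may be technical.

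**Figure D1:**
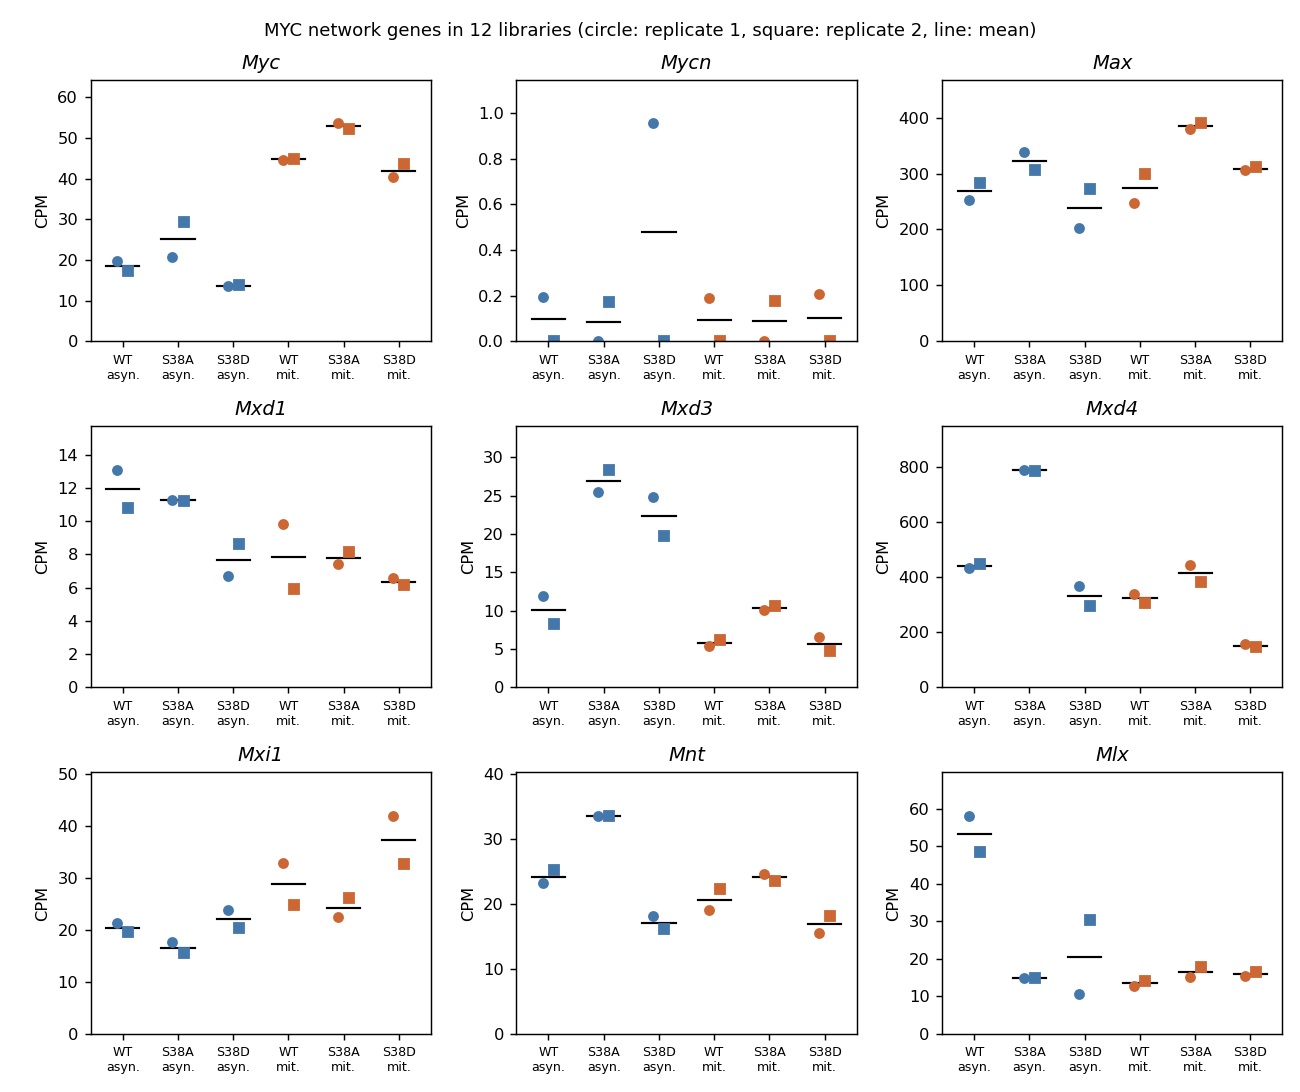
CPM of the 9 genes found, on axes that start at 0, in each of the 12 libraries, for asynchronous (asyn., blue) and mitotic (mit., orange) cells of each line. Circles are replicate 1, squares replicate 2 and lines the mean of 2. Myc is higher in every mitotic library (40.3 to 53.6 CPM) than in any asynchronous library (13.5 to 29.3 CPM), and Mlx is high in WT asynchronous cells at 48.4 and 58.2 CPM.

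The first comparison asked how the network differed between mitotic and asynchronous cells over the 3 lines. Myc RNA rose and the antagonist genes Mxd3, Mxd4 and Mxd1 fell, while the antagonist Mxi1 rose. In bulk RNA, fewer cells of a kind and less RNA per cell cannot be told apart. Of the 8 genes tested, 3 were called higher (Myc, Max and Mxi1) and 4 lower (Mxd1, Mxd3, Mxd4 and Mlx) by edgeR's quasi-likelihood test at an adjusted p under 0.05. Of all 10477 genes tested, 42.1% were called in this comparison, 20.5% higher and 21.6% lower. The median log2 fold change of the 8 genes was -0.35, against -0.02 for all genes tested. Scaling to the spike-in RNA moved the median of all genes to -0.20 and the split of all calls from 2145 higher and 2262 lower to 1035 and 3344. The summed B cell markers were lower in every mitotic library than in any asynchronous one, and their part in these results was not tested.

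Myc (ENSMUSG00000022346.15, chromosome 15, 61985391 to 61990374, plus strand, GRCm38) had 19.7 and 17.3 CPM in the asynchronous WT libraries, 20.8 and 29.3 in those of S38A, and 13.5 and 13.8 in those of S38D. In mitotic libraries it had 44.7 and 44.9 CPM for WT, while S38A had 53.6 and 52.2 and S38D had 40.3 and 43.6. The ranges of the 2 states did not overlap, which held for 10.6% of all genes tested and for none of the other 7 listed genes tested. Myc rose by 1.32 on the log2 scale (SE 0.0991, edgeR adjusted p = 4.51e-08), from a mean of 19.1 ± 5.83 to 46.6 ± 5.21 CPM (SD, n = 6 libraries per state). The rise was called in each line. It was 1.27 in WT (SE 0.175, edgeR adjusted p = 0.000127), 1.08 for S38A cells (SE 0.165, adjusted p = 0.000401) and 1.62 for S38D cells (SE 0.175, adjusted p = 7.66e-06). Ordered by mean, the groups ran from S38D (13.6 CPM), WT (18.5) and S38A (25.0) asynchronous to S38D (41.9), WT (44.8) and S38A (52.9) mitotic, so the lines stood in the same order in both states. The libraries of neighbouring groups in that order did not overlap. For a single pair of lines within a state, libraries were apart for 45% to 68.7% of all genes tested, depending on the pair. How many genes had all neighbouring groups apart was not counted. None of the differences between lines in Myc passed the test except S38D against S38A in asynchronous cells, given below.

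Pvt1, a noncoding RNA gene next to Myc, was one of the genes listed with the network and also rose, from 4.54 ± 1.07 to 10.3 ± 2.83 CPM (SD, n = 6), by 1.16 on the log2 scale (SE 0.148, edgeR adjusted p = 1.23e-05). By Pearson correlation of log2 CPM over the 12 libraries, the genes most like Myc among 6834 compared were Tent5c (r = 0.963), Rnf7 (0.958), Fosl2 (0.957), Fam162a (0.956) and Klf2 (0.955). These points share the library, its depth and the split by state, and r is given as a description.

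Mycn, a MYC paralog mainly of neural and embryonic tissue (chromosome 12, 12936093 to 12941914, minus strand), was at or near 0. It had 0 or 1 reads in 11 libraries and 6 reads in asynchronous S38D replicate 1, where it reached 0.954 CPM. No fold change is given at this depth.

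Max (chromosome 12, 76937269 to 76962201, minus strand), the shared partner, was abundant in both states. It ranged from 203 to 338 CPM in asynchronous libraries (median 278) and from 247 to 390 CPM in mitotic ones (median 309), and the states overlapped. The mean difference was 0.22 on the log2 scale (SE 0.0785, edgeR adjusted p = 0.0326), and 0.03 with an adjusted p = 0.845 when libraries were scaled to the spike-in RNA. The call was also lost without any 1 of 8 libraries, both mitotic replicates of S38A and of S38D, asynchronous replicate 1 of WT and of S38D, asynchronous replicate 2 of S38A and mitotic replicate 2 of WT, with an adjusted p of 0.0546 to 0.111. In no single line was Max called, with differences of 0.03 in WT (95% interval -0.26 to 0.32), 0.26 in S38A (-0.03 to 0.54) and 0.37 in S38D (0.08 to 0.66, adjusted p = 0.0535). The S38D value passed the test without asynchronous S38D replicate 2 (0.59) or either mitotic WT library (0.000992 to 0.049), by limma-voom (0.0435) and without a filter on low counts (0.0286). The S38A value passed with only the 2 S38A groups in the fit (0.0305), where 25.8% of all genes were called.

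Among the antagonists, Mxd3 (chromosome 13, 55325168 to 55329823, minus strand), the MXD gene tied to S phase, fell most. Its asynchronous libraries had 11.9 and 8.21 CPM for WT, while S38A had 25.5 and 28.4 and S38D had 24.8 and 19.8. Its mitotic libraries had 5.47 and 6.13 CPM for WT, while S38A had 10.1 and 10.6 and S38D had 6.58 and 4.70. Within each line every mitotic library was below every asynchronous one, and only mitotic S38A overlapped with asynchronous WT. Within a line the states were apart, in either direction, for 66.8% (WT), 62.4% (S38A) and 59% (S38D) of all genes tested. Mxd3 changed by -1.39 on the log2 scale over the 3 lines (SE 0.139, edgeR adjusted p = 9.4e-07), with single-line values of -0.82 for WT (SE 0.263), -1.38 for S38A (SE 0.218) and -1.99 for S38D (SE 0.24). The WT value had an adjusted p = 0.0315, which was 0.349 without WT asynchronous replicate 1 and 0.194 without WT mitotic replicate 1, and between 0.0513 and 0.0716 without WT mitotic replicate 2 or any 1 of the 4 S38A libraries. The WT adjusted p was 0.149 by DESeq2, 0.0578 by limma-voom and 0.0716 with only the 2 WT groups in the fit. The last bases of Mxd3 overlap Prelid1 on the opposite strand, whose reads rose by 0.24 (SE 0.0686), and whether reads were counted by strand is not given in the sources used here.

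Mxd4 (chromosome 5, 34173883 to 34187720, minus strand), an MXD gene usually higher in cells that have left the cycle, fell too. In asynchronous libraries it had 433 and 447 CPM for WT, while S38A had 792 and 788 and S38D had 368 and 295. In mitotic libraries it had 341 and 308 CPM for WT, while S38A had 446 and 384 and S38D had 158 and 147. The states did not overlap within any line. In a single line that held for 59% to 66.8% of all genes tested. The lines differed enough for the states to overlap across lines. Mxd4 changed by -0.83 on the log2 scale over the 3 lines (SE 0.07, edgeR adjusted p = 1.6e-07). In WT the change was -0.44 (SE 0.121, adjusted p = 0.0144), beside -0.93 for S38A cells (SE 0.12) and -1.12 for S38D cells (SE 0.123). The tests of these differences between lines are given below. The WT call was lost without any 1 of the 4 WT libraries, with an adjusted p of 0.0558 to 0.111.

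Mxi1 (chromosome 19, 53310518 to 53375810, plus strand), also known as Mxd2, moved the other way. Asynchronous libraries ran from 15.5 to 23.8 CPM (median 19.9) and mitotic libraries from 22.4 to 41.9 CPM (median 29.4). The states were apart within every line, as 59% to 66.8% of all genes tested were in a single line, and overlapped across lines. Mxi1 rose by 0.60 on the log2 scale over the 3 lines (SE 0.111, edgeR adjusted p = 0.000433). Only the S38D value was called within a line, at 0.76 (SE 0.188, adjusted p = 0.00738; 0.108 without S38D mitotic replicate 1), beside 0.50 in WT (SE 0.196, adjusted p = 0.0738) and 0.55 in S38A (SE 0.195, adjusted p = 0.071). The WT value passed the test without either asynchronous S38D library or WT mitotic replicate 2 (adjusted p of 0.032 to 0.0425), the S38A value without either asynchronous S38D library (0.0403 to 0.0426), and under spike-in scaling the WT value was 0.06. With only the 2 groups of a line in the fit, the adjusted p was 0.0555 in S38D and 0.0285 in S38A.

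Mxd1 (chromosome 6, 86647042 to 86669161, minus strand), the founding MXD gene, ran from 6.68 to 13.1 CPM in asynchronous and from 5.91 to 9.80 CPM in mitotic libraries. It changed by -0.46 on the log2 scale (SE 0.154, edgeR adjusted p = 0.0226), and had an adjusted p = 0.144 by DESeq2. In no single line was it called, but the WT value of -0.60 (adjusted p = 0.11) was called at -1.03 under spike-in scaling (adjusted p = 0.0157), where the median of all genes was -0.46 in WT. It was also called (adjusted p = 0.022) without WT mitotic replicate 1 and S38D asynchronous replicate 1. The call over the 3 lines was lost without WT asynchronous replicate 1, WT mitotic replicate 2, S38A mitotic replicate 1 or S38D mitotic replicate 2 (adjusted p of 0.0538 to 0.0751). Mnt (chromosome 11, 74830920 to 74845725, plus strand), the broadly expressed antagonist, ran from 16.1 to 33.6 CPM and from 15.6 to 24.7 CPM in the 2 states. Its difference of -0.24 (SE 0.0976) did not pass the test (edgeR adjusted p = 0.0592), but it reached -0.42 (adjusted p = 0.00817) when scaled to spike-ins. Without S38D asynchronous replicate 2 it was -0.27 and passed. In no single line was Mnt called, at -0.23 in WT, -0.47 in S38A (adjusted p = 0.0604) and -0.02 in S38D. The S38A value passed in some alternatives, and the WT value under spike-in scaling (-0.67, adjusted p = 0.0192).

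Mlx (chromosome 11, 101087277 to 101092207, plus strand) was high in asynchronous WT cells and fell in mitotic WT cells. It had 58.2 and 48.4 CPM in asynchronous WT libraries against 12.8 and 14.2 CPM in mitotic WT. In S38A it had 14.8 and 15.0 CPM asynchronous and 15.2 and 17.7 CPM mitotic. In S38D the asynchronous replicates disagreed, at 10.6 and 30.4 CPM, and the mitotic ones had 15.4 and 16.5 CPM. Apart from asynchronous WT and asynchronous S38D replicate 2, no library exceeded 17.7 CPM. The change in WT was -1.98 on the log2 scale (SE 0.389, edgeR adjusted p = 0.00652; 0.0505 without WT asynchronous replicate 1 and 0.067 without WT mitotic replicate 1), beside 0.14 in S38A (95% interval -0.75 to 1.04) and -0.35 in S38D (95% interval -1.24 to 0.53). The S38D value was -0.93 without S38D asynchronous replicate 1. Over all alternatives run it went from -0.93 to 0.57, so its sign was not settled. Asynchronous S38D replicate 1, at 10.6 CPM, lay below both mitotic S38D libraries. The mean over lines was -0.73 (SE 0.225, edgeR adjusted p = 0.0281). Its adjusted p was 0.0508 by limma-voom, and the call was lost without any 1 of 9 libraries, that is all but asynchronous WT replicate 2 and both asynchronous S38D replicates (adjusted p of 0.0526 to 0.0747). Psmc3ip, which overlaps the 3′ end of Mlx on the opposite strand, had 23.2 ± 1.61 CPM in asynchronous WT, 23.1 ± 1.70 in S38A and 25.8 ± 0.336 in S38D (SD, n = 2), so its reads did not share the high level of asynchronous WT. Psmc3ip itself fell in mitotic cells, by 0.60 on the log2 scale over the 3 lines (SE 0.0998, adjusted p = 0.000154).

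**Figure D2:**
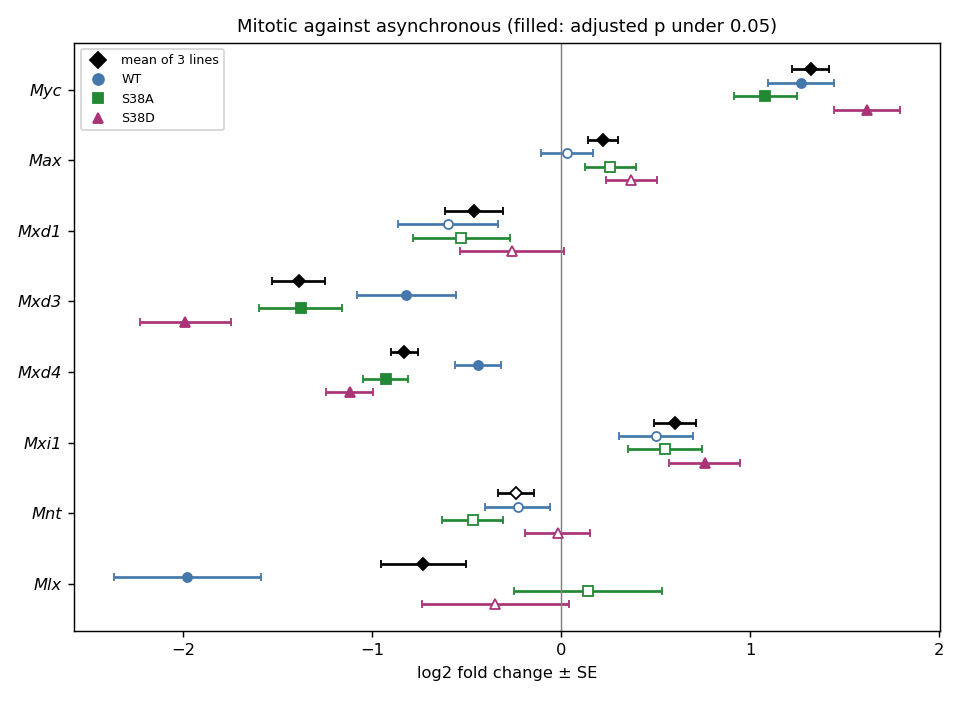
Log2 fold change of mitotic against asynchronous cells for the 8 tested genes, as the mean of 3 lines (black) and in each line. Bars are the SE of the edgeR fit and filled symbols have an adjusted p under 0.05. Myc lies between 1.08 and 1.62 in the single lines, and Mlx at -1.98 in WT stands away from its values in S38A (0.14) and S38D (-0.35).

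Scaling to spike-ins moved the median of all genes to -0.46 in WT, 0.03 in S38A and -0.12 in S38D. Within single lines the counts of called genes were 4 of 8 in WT (1 higher and 3 lower), 3 of 8 in S38A (1 and 2) and 4 of 8 in S38D (2 and 2). Of all genes tested, 26.0% were called in WT (13.4% higher and 12.7% lower). The share was 14.8% for S38A (6.72% higher, 8.06% lower) and 26.4% for S38D (11.6% higher, 14.8% lower). Whether the mitotic change differed between lines was tested directly, and edgeR called none of the 8 genes in any of the 3 pairs of lines, with 2 at an unadjusted p under 0.05 for S38A against WT, 3 for S38D against WT and 1 for the 2 mutants. In the same 3 tests DESeq2 called 0, 1 and 0 genes and limma-voom 0, 0 and 0. Of all genes tested, edgeR called 0.993%, 0.401% and 0.0382%. The shares were 1.69%, 1.03% and 0.105% by DESeq2, and 0.916%, 0.334% and 0.00954% by limma-voom. The widest differences were those of Mlx, at 2.12 for S38A minus WT (SE 0.553, adjusted p = 0.108) and 1.63 for S38D minus WT (SE 0.549, adjusted p = 0.177). Leaving out an asynchronous S38D library raised the calls over all genes as well. For S38A minus WT they went from 104 to 1214 without replicate 1 and to 1285 without replicate 2, and for S38D minus WT from 42 to 52 and to 2757 (25.5% of genes tested). Without either asynchronous S38D library the first Mlx difference had an adjusted p of 4.24e-05 or 4.31e-05, and without asynchronous S38D replicate 2 the second was 2.53 with an adjusted p = 2.25e-05. Mxd4 differed by -0.68 for S38D minus WT (SE 0.171, adjusted p = 0.0835), which DESeq2 called with an adjusted p = 0.0363. Without asynchronous S38D replicate 2, 4 genes were called for S38D minus WT, the others being Max (0.53, adjusted p = 0.0188), Mxd3 (-1.35, adjusted p = 0.0131) and Mxd4 (-0.87, adjusted p = 0.000269). Without either asynchronous S38D library, Mxd4 was also called for S38A minus WT (adjusted p of 0.00811 to 0.0108). For Myc the differences were -0.19 (S38A minus WT, 95% interval -0.69 to 0.32), 0.35 (S38D minus WT, -0.17 to 0.87) and 0.54 (S38D minus S38A, 0.03 to 1.04).

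Read ratios within a library do not depend on how libraries are scaled. The log2 ratio of Myc to Max reads lay between -4.30 and -3.39 in asynchronous libraries and between -2.92 and -2.47 in mitotic ones, a mean shift of 1.10 over the 3 lines. Against the summed reads of Mxd1, Mxd3, Mxd4, Mxi1 and Mnt, the log2 ratio of Myc ran from -5.40 to -4.66 in asynchronous and from -3.25 to -2.26 in mitotic libraries, a mean shift of 2.04. Neither ratio overlapped between the states, but Myc is the numerator of both and its own CPM did not overlap either. The share of other gene ratios that are apart in this way was not tested. The shift of the second ratio was 1.66 in WT, 1.97 in S38A and 2.48 in S38D, and mitotic S38D stood highest, at -2.50 and -2.26. These ratios describe changes between libraries, since the reads of different genes are not on one scale, and most reads in the sum came from Mxd4.

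**Figure D3:**
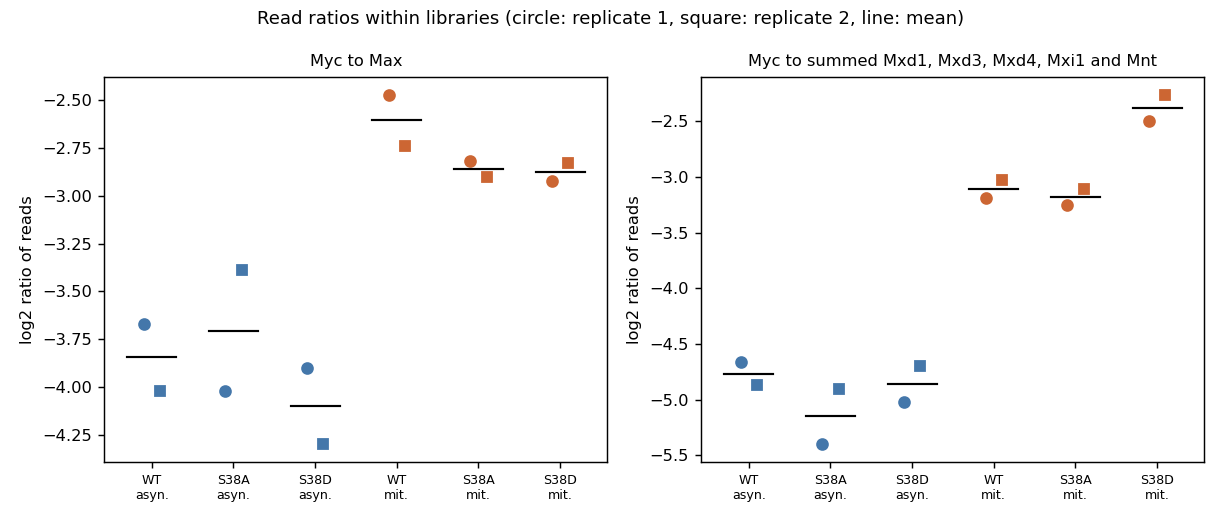
Log2 ratio of Myc reads to Max reads (left) and to the summed reads of 5 antagonist genes (right) in each library, with blue for asynchronous (asyn.) and orange for mitotic (mit.) cells. Circles are replicate 1, squares replicate 2 and lines the group mean. In both panels all 6 mitotic libraries lie above all 6 asynchronous ones.

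The next comparisons asked how the network differed between the RPL12 lines in asynchronous cells. In S38A, Mxd3 and Mxd4 were higher and Mlx lower than in WT, so 3 of 8 genes were called (2 higher and 1 lower), against 21.2% of all genes (11.7% higher and 9.54% lower). In S38D, Mxd3 was higher and Mxd4 lower, so 2 of 8 were called, against 8.99% of all genes (4.87% higher and 4.12% lower). Spike-in RNA made up less of the gene reads in asynchronous WT (2.29% and 2.70%) than in the other libraries (2.83% to 3.60%). Scaling to it moved the median of all genes to -0.47 for S38A and -0.38 for S38D on the log2 scale. Calls over all genes went from 1224 higher and 999 lower to 202 and 3115 for S38A, and from 510 and 432 to 58 and 1307 for S38D.

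Mxd3 rose in S38A by 1.40 on the log2 scale (SE 0.225, edgeR adjusted p = 0.000428), from 10.1 ± 2.62 to 27.0 ± 2.07 CPM (SD, n = 2). In S38D it rose by 1.12 (SE 0.227, adjusted p = 0.00562), to 22.3 ± 3.56 CPM. No mutant library overlapped with WT, which held for 68.7% of all genes tested in S38A and 51.4% in S38D, in either direction. Under spike-in scaling the values were 0.97 (adjusted p = 0.00754) and 0.75 (adjusted p = 0.0504). The S38D call was also lost without WT asynchronous replicate 2 (adjusted p = 0.0817), and with only the 2 groups in the fit (adjusted p = 0.149). Prelid1, whose end overlaps Mxd3, differed from WT by 0.32 in S38A and 0.29 in S38D, neither called.

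Mxd4 had differences of opposite sign in the mutant lines. It rose in S38A by 0.84 (SE 0.12, edgeR adjusted p = 0.000157), from 440 ± 9.77 to 790 ± 3.21 CPM (SD, n = 2), and by 0.39 (adjusted p = 0.0484) under spike-in scaling. In S38D it changed by -0.41 (SE 0.12, adjusted p = 0.0444), to 332 ± 52.2 CPM, and by -0.80 (adjusted p = 0.00199) under spike-in scaling. The S38D call was lost without any 1 of 11 libraries, all but asynchronous S38D replicate 1 (adjusted p of 0.0648 to 0.228), with the value at -0.22 without S38D asynchronous replicate 2. With only the 2 groups in the fit its adjusted p was 0.235. Between the mutants the difference was -1.25 for S38D against S38A (SE 0.121, adjusted p = 7.87e-06).

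Mlx changed by -1.84 in S38A against WT (SE 0.379, edgeR adjusted p = 0.00924), from 53.3 ± 6.92 to 14.9 ± 0.136 CPM (SD, n = 2), and the adjusted p was 0.068 to 0.0705 without WT asynchronous replicate 1 or either asynchronous S38A library. In S38D the difference of -1.39 (SE 0.37) had an adjusted p = 0.0517, with 20.5 ± 13.9 CPM. It passed the test without asynchronous S38D replicate 1 (-0.80, adjusted p = 0.0144) and without replicate 2 (-2.29, adjusted p = 5.97e-07). Psmc3ip, at its 3′ end, had 0.00 for S38A over WT (SE 0.169) and 0.16 for S38D over WT (SE 0.169).

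Myc itself passed the test against WT in neither line, at 0.43 for S38A (SE 0.177, edgeR adjusted p = 0.0988) and -0.45 for S38D (SE 0.185, adjusted p = 0.146). Under spike-in scaling these became -0.01 and -0.81 (adjusted p = 0.979 and 0.0248). The S38A value was 0.70 with an adjusted p = 0.0268 without S38A asynchronous replicate 1, and 0.46 with an adjusted p = 0.0477 without S38D asynchronous replicate 2. Mnt showed the same arrangement, at 0.47 for S38A (SE 0.165, adjusted p = 0.0524) and -0.50 for S38D (SE 0.172, adjusted p = 0.0807), with 33.5 and 33.6 CPM in the S38A libraries, 23.2 and 25.2 in WT and 18.1 and 16.1 in S38D. In S38A, Mnt passed without any 1 library of asynchronous S38D or mitotic WT (adjusted p of 0.0167 to 0.0414), and in S38D under spike-in scaling (-0.89, adjusted p = 0.0104). Max, Mxd1 and Mxi1 passed the test in neither line. As exceptions, Max passed in S38A without either asynchronous S38D library (0.0223 to 0.0258) and in S38D without replicate 2 of that group (-0.35, adjusted p = 0.036), and under spike-in scaling Mxi1 passed in S38A (-0.75, adjusted p = 0.0196) and Mxd1 in S38D (-1.01, adjusted p = 0.0349).

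S38D and S38A were also compared with each other, where 3 of 8 genes were called in asynchronous cells, all lower in S38D, against 7.22% of all genes tested (3.32% higher and 3.89% lower). Myc changed by -0.87 (SE 0.177, edgeR adjusted p = 0.00642; 0.13 without S38A asynchronous replicate 2), Mxd4 by the value above and Mnt by -0.97 (SE 0.166, adjusted p = 0.00174). With only these 2 groups in the fit, the adjusted p was 0.163 for Myc and 0.0708 for Mnt. Max, at -0.44 (SE 0.136, adjusted p = 0.0659), passed without asynchronous S38D replicate 2 or either mitotic WT library (-0.66 to -0.45). Mlx, at 0.45 (adjusted p = 0.582), was not called. It reached 1.01 and passed without asynchronous S38D replicate 1. Over all alternatives run Mlx went from -0.48 to 1.01, so its sign was not settled.

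In mitotic cells, 2 of 8 genes were called for S38A against WT (both higher), 1 for S38D against WT (lower) and 4 for S38D against S38A (1 higher and 3 lower). Of all genes, 17.0% were called for S38A against WT (8.31% higher and 8.72% lower), 4.56% for S38D against WT (1.15% and 3.41%) and 17.7% between the mutants (7.51% and 10.2%). Mxd4 was lower in S38D than in both other lines, at 152 ± 7.40 CPM against 325 ± 23.6 in WT and 415 ± 43.8 in S38A (SD, n = 2). It fell by 1.09 on the log2 scale against WT (SE 0.123, edgeR adjusted p = 4.12e-05) and by 1.45 against S38A (SE 0.123, adjusted p = 1.59e-06). These Mxd4 calls held when any 1 library was left out. In S38A, Max rose by 0.49 against WT (SE 0.136, adjusted p = 0.0202), with 380 and 390 CPM against 247 and 300 CPM. Mxd3 rose by 0.84 (SE 0.256, adjusted p = 0.0336), with 10.1 and 10.6 CPM against 5.47 and 6.13 CPM. Under spike-in scaling neither was called (adjusted p = 0.16 for Max and 0.0534 for Mxd3). Max lost its call without WT mitotic replicate 1 or either mitotic S38A library (adjusted p of 0.0912 to 0.226), and Mxd3 without any 1 library of mitotic WT or of S38A in either state (0.0548 to 0.208). With only the 2 groups in the fit, the Mxd3 adjusted p was 0.0558. Mxd4, at 0.35 (SE 0.12, adjusted p = 0.0544), passed without either asynchronous S38D library (0.00367 to 0.00567).

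Against S38A, mitotic S38D cells were lower in Mxd3, at -0.88 (SE 0.255, edgeR adjusted p = 0.0255), and in Mnt, at -0.51 (SE 0.17, adjusted p = 0.0474), and higher in Mxi1, at 0.62 (SE 0.188, adjusted p = 0.0313). By DESeq2 only Mxd4 was called, with an adjusted p of 0.151 for Mxd3, 0.275 for Mnt and 0.112 for Mxi1, while limma-voom called 4. Of all genes, DESeq2 called 10% and limma-voom 17.6% in this comparison. Under spike-in scaling Mxi1 (adjusted p = 0.09) and Mnt (0.0734) were not called. The Mnt call was lost without any 1 of 10 libraries, all but the 2 asynchronous S38D ones (adjusted p of 0.0538 to 0.264). Those of Mxd3 and Mxi1 were lost without either mitotic S38A library, and that of Mxd3 also without S38D mitotic replicate 2 and that of Mxi1 without S38D mitotic replicate 1 (0.0748 to 0.258). Max, at -0.32 (adjusted p = 0.119), passed without either asynchronous S38D library (0.0237 to 0.027). Mitotic Myc did not pass the test between any 2 lines, with differences of 0.24 for S38A over WT (95% interval -0.10 to 0.58), -0.09 for S38D over WT (-0.44 to 0.25) and -0.33 between the mutants (S38D over S38A, -0.68 to 0.01).

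**Figure D4:**
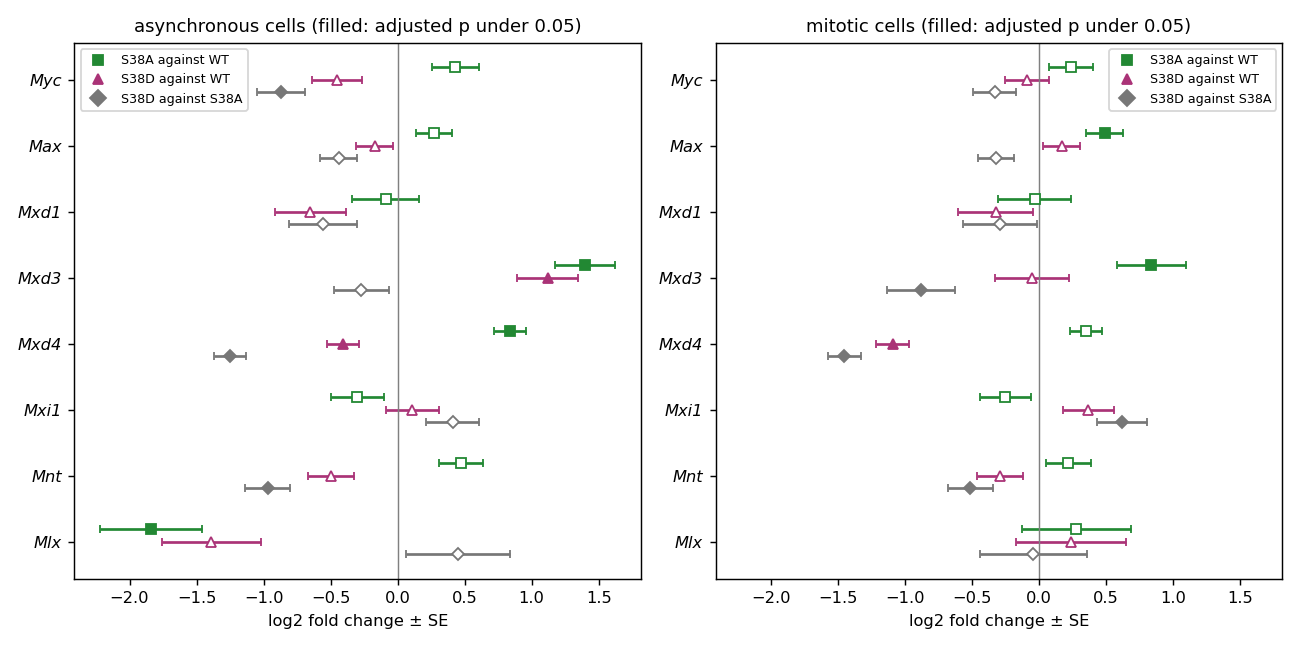
Log2 fold change between lines for the 8 tested genes in asynchronous (left) and mitotic (right) cells, with the SE of the edgeR fit as bars and filled symbols for an adjusted p under 0.05. Mxd4 is higher in S38A and lower in S38D than in WT in asynchronous cells (0.84 and -0.41), and lies at -1.09 for S38D against WT in mitotic cells.

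Each gene was also set beside the gene whose log2 CPM followed it most closely over the 12 libraries, as a description. These were Dhx30 for Max (Pearson r = 0.968), Tnrc6b for Mxd1 (0.898), Hdac7 for Mxd3 (0.976), Yars2 for Mxi1 (0.954), Sorl1 for Mnt (0.949) and Tsc22d4 for Mlx (0.972). For Mxd4 it was the globin gene Hbb-bt (0.986), whose level is given above.

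Other genes of the network were taken from lists written for this purpose. Of 20 further network proteins and cofactors (Pvt1 included), 19 were tested, and in the mean mitotic comparison 6 rose and 2 fell, with a median of 0.18, against 20.5% of all genes higher, 21.6% lower and a median of -0.02. Kat2a, the acetyltransferase GCN5 that MYC recruits, rose by 0.77 (SE 0.0812), and Bptf, a chromatin remodelling subunit, changed by -1.11 (SE 0.0757, edgeR adjusted p = 1.7e-08), from 259 ± 37.5 to 121 ± 24.2 CPM (SD, n = 6). Under spike-in scaling 2 of these genes rose and 5 fell, where all genes split into 1035 higher and 3344 lower. Zbtb17 (MIZ-1) ran from 6.03 to 10.9 CPM in asynchronous and from 8.32 to 13.6 CPM in mitotic libraries, and its difference of 0.28 (SE 0.17) did not pass the test (adjusted p = 0.198). Of 16 genes for MYC turnover, all tested, 2 rose and 7 fell (median -0.05), against the same background. Fbxw7, the ubiquitin ligase subunit that marks MYC for degradation, changed by -0.67 (SE 0.0927) and Aurka, a mitotic kinase that can shield MYC proteins from it, by -0.40 (SE 0.0608), while Usp36, a nucleolar deubiquitinase, rose by 0.64 (SE 0.0969).

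Genes commonly listed as MYC targets, many of them for ribosome production, mostly rose. Of 64 tested out of 65, 41 rose and 4 fell, with a median of 0.38, beside 20.5% higher, 21.6% lower and a median of -0.02 over all genes. The list shares members with the ribosome biogenesis genes, which were known to rise in these data, and is no independent evidence. Srm, which makes spermidine, rose by 0.93 (SE 0.0712), from 104 ± 23.8 to 202 ± 58.2 CPM (SD, n = 6), Ndufaf4, an assembly factor of respiratory complex I, by 0.88 (SE 0.0646), and Rcl1, a factor of ribosomal RNA processing, by 0.81 (SE 0.0634), with edgeR adjusted p-values of 6.39e-08, 3.68e-08 and 7.38e-08. Under spike-in scaling 25 rose and 8 fell, where all genes split into 1035 higher and 3344 lower. In single lines 35 rose and 5 fell in WT, 17 and 1 in S38A and 29 and 4 in S38D. Of all genes, 13.4% were called higher and 12.7% lower in WT, 6.72% and 8.06% in S38A and 11.6% and 14.8% in S38D.

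The smaller lists showed no common direction in mitotic cells. Of 8 tested genes that MYC represses, alone or with MIZ-1, 2 rose and 2 fell (median 0.05), beside 20.5% of all genes higher and 21.6% lower. In single lines 0 rose and 1 fell in WT, 0 and 0 in S38A and 1 and 1 in S38D. Of all genes, 26.0% were called in WT, 14.8% in S38A and 26.4% in S38D. Gadd45a and Cdkn1b differed between lines in asynchronous cells, as given below. In the mean over lines, Gadd45a, a stress gene, changed by -1.18 (SE 0.225). Cdkn1b, encoding the cyclin-dependent kinase inhibitor p27, rose by 0.59 (SE 0.19, edgeR adjusted p = 0.0191), and Cdkn1a, encoding p21, by 0.80 (SE 0.278, adjusted p = 0.029). The Cdkn1b call was lost without WT asynchronous replicate 1, WT mitotic replicate 1 or S38D mitotic replicate 2 (adjusted p of 0.0564 to 0.0656), and the Cdkn1a call without any 1 of 7 libraries, both asynchronous WT libraries, asynchronous replicate 2 of S38A and replicate 1 of S38D, and mitotic replicate 2 of WT and replicate 1 of S38A and S38D (0.0517 to 0.123). Neither was called by DESeq2 (0.149 and 0.11) or under spike-in scaling (0.109 and 0.0989). In the mean over lines, edgeR called 0 of 3 tested targets of MondoA and MLX, with 1 at an unadjusted p under 0.05. DESeq2 called 0 and limma-voom 1. That gene was Klf10, at 0.47 (SE 0.205, edgeR adjusted p = 0.0738), or 0.70 with an adjusted p = 0.00746 without S38D asynchronous replicate 2. Txnip, which restrains glucose uptake and is the best known of them, had 33.9 ± 19.6 CPM in asynchronous and 30.7 ± 7.75 CPM in mitotic libraries (SD, n = 6). Its mean difference over lines was 0.02 (SE 0.391, edgeR adjusted p = 0.968). In single lines the median of the 3 targets was -0.95 in WT (1 called, lower), 0.21 in S38A and 0.83 in S38D (0 called in either). No difference between lines in their mitotic change was called.

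**Figure D5:**
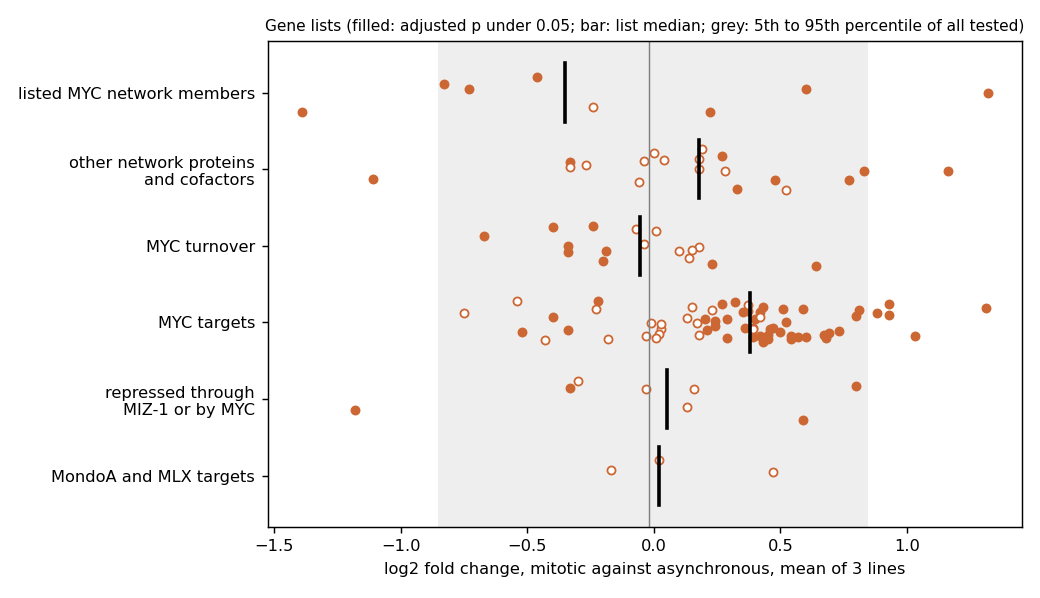
Log2 fold change of mitotic against asynchronous cells (mean of 3 lines) for each tested gene of 6 lists, filled where the adjusted p is under 0.05. Black bars are list medians (0.38 for MYC targets, -0.35 for the listed network members), and the grey band spans the 5th to 95th percentile of all genes tested (-0.85 to 0.84).

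The same lists were compared between lines in asynchronous cells. Of the 64 MYC targets 8 rose and 8 fell in S38A against WT, and 8 rose and 1 fell in S38D, set beside 11.7% of all genes higher and 9.54% lower in S38A, and 4.87% and 4.12% in S38D. Under spike-in scaling the counts became 2 and 25 in S38A, where all genes split into 202 higher and 3115 lower. In S38D they became 0 and 7, where all genes split into 58 and 1307. The other lists below are read against these backgrounds. Dusp2, a phosphatase of MAP kinases, rose in both lines, with 1.09 for S38A (SE 0.0995) and 0.67 for S38D (SE 0.0988), from 762 ± 37.5 CPM in WT to 1620 ± 77.5 and 1210 ± 59.0 CPM (SD, n = 2). The replication gene Mcm5 rose by 0.85 in S38A (SE 0.117), and Ccnd2, encoding cyclin D2, changed by -1.39 in S38D (SE 0.235). Under spike-in scaling Mcm5 in S38A (0.39, adjusted p = 0.0511) and Dusp2 in S38D (0.29, adjusted p = 0.19) were not called. Of 19 network proteins and cofactors 2 rose and 2 fell in S38A (0 and 9 under spike-in scaling) and 1 rose and 1 fell in S38D (0 and 5). The acetyltransferase gene Kat5 rose by 0.57 in both lines (edgeR adjusted p = 0.00895 and 0.0199), a call lost in S38A without WT asynchronous replicate 2 (0.0803) and in S38D without either asynchronous WT library or S38D asynchronous replicate 1 (0.0697 to 0.151), and in both under spike-in scaling (0.12 and 0.18). Hdac2, a corepressor deacetylase, changed by -0.87 in S38A (SE 0.165), and Mycl, the third MYC family gene, by -1.84 in S38D (SE 0.528, adjusted p = 0.0393), at 0.847 ± 0.299 against 3.20 ± 1.48 CPM. The Mycl call was lost without any 1 of 9 libraries, all but asynchronous S38D replicate 2 and the 2 mitotic WT ones (adjusted p of 0.0533 to 0.27).

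Of the 16 turnover genes, Aurka (0.36, SE 0.105) and Ppp2r1a (0.33, SE 0.112), a phosphatase 2A scaffold, rose in S38A, and both turned negative under spike-in scaling. Their edgeR adjusted p-values of 0.0209 and 0.0453 rose to 0.0898 to 0.115 for Aurka without either asynchronous WT library or S38A asynchronous replicate 1, and to 0.0522 to 0.29 for Ppp2r1a without any asynchronous WT or S38A library or S38D mitotic replicate 2. In S38D edgeR, DESeq2 and limma-voom each called 0 of the 16, with 5 at an unadjusted p under 0.05 by edgeR, and without S38D asynchronous replicate 2 the values of Ppp2r1a (0.45) and Stub1 (0.56) passed. Among genes that MYC represses, Gadd45b rose by 1.01 in S38A (SE 0.156) and Gadd45a was lower in both lines, at -1.94 for S38A (SE 0.346) and -1.68 for S38D (SE 0.34, adjusted p = 0.00796; 0.111 without WT asynchronous replicate 1). Cdkn1b changed by -2.62 in S38D (SE 0.344, edgeR adjusted p = 0.000174), at 1.49 ± 0.363 against 9.47 ± 1.81 CPM (SD, n = 2). Of the 3 MondoA and MLX targets, Arrdc3, an arrestin-like gene, was called in both lines, at -1.59 for S38A (SE 0.31, adjusted p = 0.00191) and -1.75 for S38D (SE 0.316, adjusted p = 0.00256), with 11.7 ± 0.0785 CPM in WT, 3.86 ± 0.103 in S38A and 3.46 ± 0.847 in S38D. With only the 2 groups in the fit, 83 of all genes were called for S38D against WT in place of 942. Of the S38D calls named here for list genes, those of Dusp2, Ccnd2, Arrdc3, Gadd45a, Kat5 and Mycl were lost there (adjusted p of 0.071 to 0.263), and Mycl had 0.0511 by limma-voom. Txnip differed by -1.72 in S38D (SE 0.695, adjusted p = 0.191), with 55.9 ± 2.92 CPM in WT and 17.1 ± 16.0 in S38D, and by -3.24 with an adjusted p = 0.0109 without S38D asynchronous replicate 2.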

How the data were processed

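RNA of 12 libraries was sequenced from the 3′ end (QuantSeq 3′ FWD) after ERCC spike-in RNA was added. Per the submitters' processing notes the tools were bcl2fastq 2.16.0.10, cutadapt 1.12 and STAR 2.5.3a with build mm10. The deposited values are raw read counts per gene and spike-in. The counting tool, strand handling and gene models behind them were not given in the sources used here. Of the gene IDs, 51633 (99.63%) matched GENCODE M21, from which symbols and positions were taken. The members and lists were chosen with earlier results of these data known. The text names every member and, of each other list, the 3 genes with the smallest adjusted p in the mean mitotic comparison and the 2 with the smallest in each asynchronous mutant against WT. It also names the 5 genes most like Myc and the 1 most like each other tested member, among genes of at least 10 CPM. Zbtb17, Psmc3ip and Prelid1 were added for their names or overlaps.

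Counts were filtered (filterByExpr, minimum count 10) and scaled by TMM, and 6 group means were fitted with edgeR 4.0.16 (robust quasi-likelihood, Benjamini-Hochberg over 10477 genes, R 4.3.3). Alternatives were DESeq2 1.42.0, limma-voom 3.58.1, DESeq2 size factors, scaling to the spike-in total, other filters, non-robust estimation, a replicate block, only the groups compared, and each library left out. Ratios used reads plus 0.5. Gene reads numbered 3432875 to 6587997 per library. Some cell type markers are not reported here.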

Additional observations from a re-analysis of the deposited data

How the results depend on the processing

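Myc, Mxd3, Mxd4 and Mxi1 kept their mean mitotic calls and directions under all alternatives run, and so did the mitotic calls of Myc, Mxd3 and Mxd4 in S38A and in S38D. With 1 library left out, the number of the 8 genes called ranged from 4 to 8 for the mean mitotic comparison, from 1 to 5 in WT, 3 to 5 in S38A and 3 to 5 in S38D. For differences between lines it ranged from 2 to 6 (S38A against WT), 0 to 3 (S38D against WT) and 2 to 4 (S38D against S38A) in asynchronous cells, and from 0 to 3, 1 to 1 and 1 to 5 in mitotic cells. For differences in mitotic change it ranged from 0 to 2, 0 to 4 and 0 to 0. A group left with 1 library is assumed to vary like the others. The share of all genes called moved in these fits too, and whether the 8 genes moved more than other genes was not tested.

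With only the groups compared, 6 genes were called in mitotic S38A (3 in the fit of all groups), 5 for asynchronous S38A against WT (3), 0 for S38D against WT (2), 1 for S38D against S38A (3), 1 for mitotic S38A against WT (2) and 2 for the difference in mitotic change of S38A and WT (0). Over all genes these fits called 2533 (1548 in the fit of all groups), 3882 (2223), 83 (942), 105 (756), 1562 (1785) and 959 (104), in the same order. For the mean mitotic comparison that fit is the same one. Without a filter, the counts were 5 for asynchronous S38A against WT, and 2 and 3 for the mitotic change of S38A and S38D minus WT, where 2675, 616 and 726 of all genes were called. Under spike-in scaling 5 were called for asynchronous S38D against WT, 0 for mitotic S38A against WT and 2 for mitotic S38D against S38A, with 1365, 1133 and 1213 of all genes. In asynchronous S38A against WT, Aurka went to -0.09 and Ppp2r1a to -0.13 there. DESeq2 called 1 for mitotic S38A against WT, 1 for mitotic S38D against S38A and 1 for the mitotic change of S38D minus WT. Over all genes it called 1052, 1051 and 108 in the same order, where edgeR called 1785, 1851 and 42. For mitotic S38A against WT limma-voom called 1, with 1752 of all genes. Chosen after seeing the data, a fit without WT mitotic replicate 1 and S38D asynchronous replicate 1 called 6 in mitotic S38A, 6 for asynchronous S38A against WT, 2 for the mitotic change of S38A minus WT and 1 for that of S38D minus S38A, with 2914, 3900, 795 and 157 of all genes. The causes of these shifts were not tested, and some of these fits held fewer libraries.

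Same-numbered replicates deviated together in some pairs of groups only, with correlations of -0.40 to 0.786 over 15 pairs, of which 3 were above 0.1 (asynchronous S38D, mitotic WT and mitotic S38A with each other) and 3 below -0.1. Since this does not hold for every pair, the numbers are not taken to pair samples. With the replicate block, 132 of 139 values for single genes kept their side of the threshold, 6 passed it newly, and Mnt in mitotic S38D against S38A lost its call (-0.52, adjusted p = 0.0515). Mycn lies below what this depth can resolve.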
